A study of Mus musculus with 12 samples.

Results

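The NRF2 antioxidant genes described here are 10 mouse genes, Nfe2l2, Keap1, Nqo1, Hmox1, Gclc, Gclm, Srxn1, Txnrd1, Cat and Gpx1, of 15846 genes in the deposited table. They were picked out by symbol, and all 10 had 1 row each. RNA was sequenced from livers of C57BL/6 mice aged 5 months, 3 mice in each of 4 groups. The groups were Shp Hep-/- mice on the HFCF diet, wild-type mice on HFCF, Shp Hep-/- mice on chow and wild-type mice on chow, called KO and WT below. Shp, whose gene symbol is Nr0b2, is a nuclear receptor that lacks a DNA-binding domain and represses other nuclear receptors in bile acid and lipid metabolism. Shp Hep-/- denotes a knockout in hepatocytes, and the labels give neither the Cre driver nor the composition of the HFCF diet. Each liver is a mixture of cell types, so fewer cells of a type and less RNA per cell cannot be told apart in any value below.

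NRF2, the protein product of Nfe2l2, is a transcription factor that KEAP1 binds in the cytoplasm and delivers for degradation. Oxidants and electrophiles modify KEAP1, NRF2 then accumulates in the nucleus, pairs with small MAF proteins and binds antioxidant response elements in the promoters of its targets. The targets make glutathione, reduce thioredoxin and peroxiredoxins, break down heme and quinones and supply NADPH, and in liver they are known for protecting hepatocytes from reactive drug and lipid metabolites. NRF2 is controlled largely at the protein level, which RNA counts do not measure.

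In mm10 coordinates of the GENCODE M21 annotation, all 10 are protein-coding genes on 5 chromosomes. Nfe2l2 lies at chr2:75675513-75704641 on the minus strand, Srxn1 at chr2:152105516-152111376 on the plus strand and Txnrd1 at chr10:82833951-82897712 on the plus strand. Windows of 250 bases upstream of RefSeq starts of these 3 genes, which can differ from the gene ends above, are shown because they are the members whose RNA separated KO from WT livers on chow in the higher direction. Sequences are from RefSeq, build GRCm38.p6, written 5' to 3' on the strand of the gene, and capitals mark each match on either strand to TGANNNNGC, the core letters of the antioxidant response element.
Nfe2l2, chr2:75704664-75704913, minus strand: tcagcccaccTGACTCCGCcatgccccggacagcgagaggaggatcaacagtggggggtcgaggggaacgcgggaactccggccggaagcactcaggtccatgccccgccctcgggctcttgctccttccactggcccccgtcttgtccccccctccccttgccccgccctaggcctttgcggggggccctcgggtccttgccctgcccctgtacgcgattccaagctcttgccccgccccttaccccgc
Srxn1, chr2:152105274-152105523, plus strand: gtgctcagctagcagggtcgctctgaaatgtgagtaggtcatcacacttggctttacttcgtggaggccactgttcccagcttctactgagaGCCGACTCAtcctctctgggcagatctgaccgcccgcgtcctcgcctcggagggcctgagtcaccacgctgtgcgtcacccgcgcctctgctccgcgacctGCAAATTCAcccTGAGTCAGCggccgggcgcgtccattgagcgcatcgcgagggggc
Txnrd1, middle RefSeq start, chr10:82858956-82859205, plus strand: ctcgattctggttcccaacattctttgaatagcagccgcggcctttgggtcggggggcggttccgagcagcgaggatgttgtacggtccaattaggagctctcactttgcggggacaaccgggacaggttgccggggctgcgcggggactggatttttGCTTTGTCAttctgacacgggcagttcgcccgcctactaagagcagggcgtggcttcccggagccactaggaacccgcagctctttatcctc
Txnrd1, last RefSeq start, chr10:82860091-82860340, plus strand: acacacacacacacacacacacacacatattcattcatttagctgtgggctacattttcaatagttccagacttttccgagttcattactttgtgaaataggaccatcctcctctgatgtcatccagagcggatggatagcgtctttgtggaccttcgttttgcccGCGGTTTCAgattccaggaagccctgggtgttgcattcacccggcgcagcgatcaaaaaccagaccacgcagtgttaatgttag
Counted from the start site, the matches begin 240 bases upstream in Nfe2l2, 158, 57 and 45 bases upstream in Srxn1, 92 bases upstream of the middle Txnrd1 start and 84 bases upstream of the last. These 2 starts lie inside the Txnrd1 gene as GENCODE bounds it, and the window at the first RefSeq start, which held no match, is not shown. RefSeq promoter windows, which run from 250 bases before to 50 bases after a start, were at hand for 8 of the 10 members, as 10 windows; Hmox1 and Gclc are named only. TGANNNNGC was present in 6 of these 10 windows, from 5 genes, and in 41.33% of all 32817 windows. The narrower TGACNNNGC, each match of which is also a match to TGANNNNGC, was present in 4 of the 10 windows and in 12.38% of all windows. Letters in a window are a description and say nothing of binding.

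Libraries held 13967116 to 18324134 counts, and 14736 genes passed the filter on low counts, all 10 members among them. Levels of 1 gene across livers are given as CPM, read counts scaled to library size with the trimmed mean of M values (± SD, n = 3), and log2 fold changes are given ± SE from edgeR's quasi-likelihood test, with Benjamini-Hochberg adjustment over all genes tested and a call at an adjusted p under 0.05. The p-values weigh each difference between group means against the spread between mice within groups, estimated for each gene over all 4 groups. Nr0b2, the targeted gene, averaged 0.371 ± 0.151 CPM in KO and 50.2 ± 3.0 CPM in WT livers on HFCF, and 0.778 ± 0.228 CPM in KO and 34.3 ± 13.7 CPM in WT livers on chow. Each of the 4 hepatocyte markers tested, Apoa1, Ttr, Fgb and Ahsg, had at least 3355 CPM in every library. Their levels were not all alike between genotypes. On HFCF edgeR called Ahsg (adjusted p = 0.00495) and Fgb (0.0316) higher and Ttr (0.00105) lower in KO, and none was called on chow. WT HFCF replicate 1 stood apart from its group: the chi-square per degree of freedom of its counts was 32.2 and 34.4 against the other 2 libraries, while all other pairs within groups lay between 11.2 and 19.8. Results that rest on this library are given with and without it.

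Compared per length, in the FPKM values that the authors deposited, the 2 peroxide-removing enzymes were far above the rest. Gpx1, a glutathione peroxidase, had a median of 2133 FPKM over the 12 livers, and Cat, the peroxisomal enzyme catalase, 1237 FPKM. Gclc, the catalytic subunit of glutamate-cysteine ligase, followed at 102 FPKM, above its modifier subunit Gclm at 37.2 FPKM. Txnrd1 at 37.1, Srxn1 at 29.2, Nfe2l2 at 21.2 and Hmox1 at 14.8 FPKM came next, and their ranges over livers overlapped from each gene to its neighbour in this order, as did those of Gclm and Txnrd1 and of Hmox1 and Keap1. Keap1 had a median of 12.4 and Nqo1 of 6.50 FPKM, and the highest Nqo1 value, 10.4, was below the lowest Keap1 value, 11.3. The ranges of Gpx1 and Cat, of Cat and Gclc, and of Gclc and Gclm did not overlap either.

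**Figure D1:**
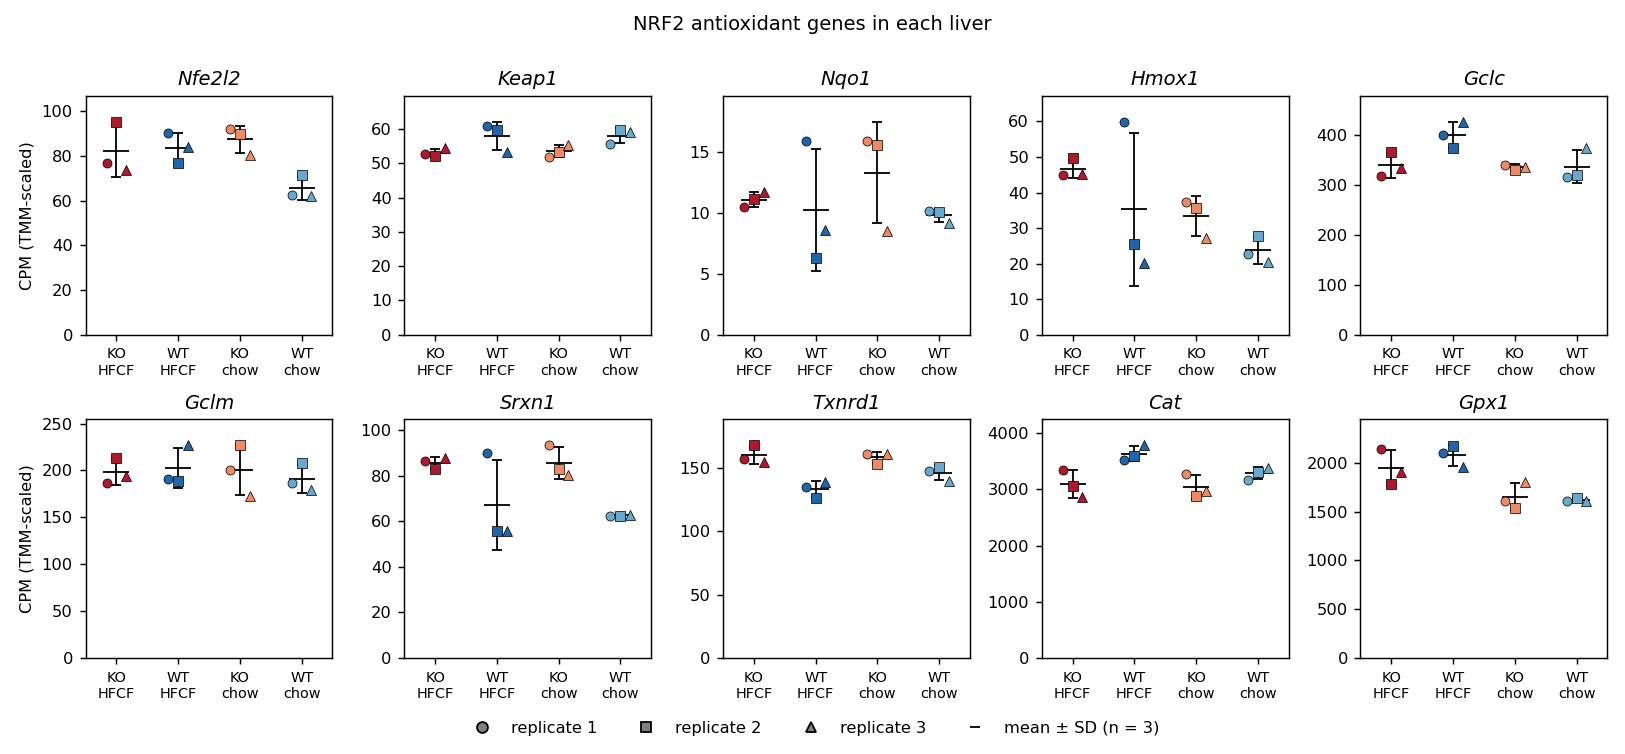
CPM of the 10 NRF2 antioxidant genes in each of the 12 livers, by group, with replicate numbers as marker shapes and the mean ± SD as bars. All 6 KO livers lie above all 6 WT livers for Txnrd1, while WT HFCF replicate 1 lies far above its group for Hmox1, Srxn1 and Nqo1.

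Few of the 10 genes passed the test in any comparison, and with all 12 libraries none was called lower in any of them by edgeR's adjusted p. HFCF against chow in WT livers gave 2 of 10 called, both higher, where 13.7% of all genes were called and 7.76% were called higher, and 5 of 10 whose groups did not overlap, where 31.1% of all genes did not. HFCF against chow in KO livers gave 0 of 10 by edgeR, with 1 at an unadjusted p under 0.05 and 0 by DESeq2, beside 2.65% of all genes called, and 1 of 10 without overlap beside 24.4% of all genes. KO against WT on chow gave 1 of 10, higher, beside 15.5% of all genes and 9.72% called higher, and 4 of 10 without overlap beside 36.1%. KO against WT on HFCF gave 1 of 10, higher, beside 19.1% of all genes and 10.6% called higher, and 3 of 10 without overlap beside 34.2%. The median log2 fold change of the 10 genes was 0.12 for HFCF in WT, 0.0087 for HFCF in KO, 0.092 for KO on chow and -0.029 for KO on HFCF, against -0.0033, -2.6e-05, 0.0041 and 0.020 over all genes tested. At 0 to 2 of 10, no count of calls stands apart from the share of all genes, and the comparisons share groups with each other, so their values are set side by side only.

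**Figure D2:**
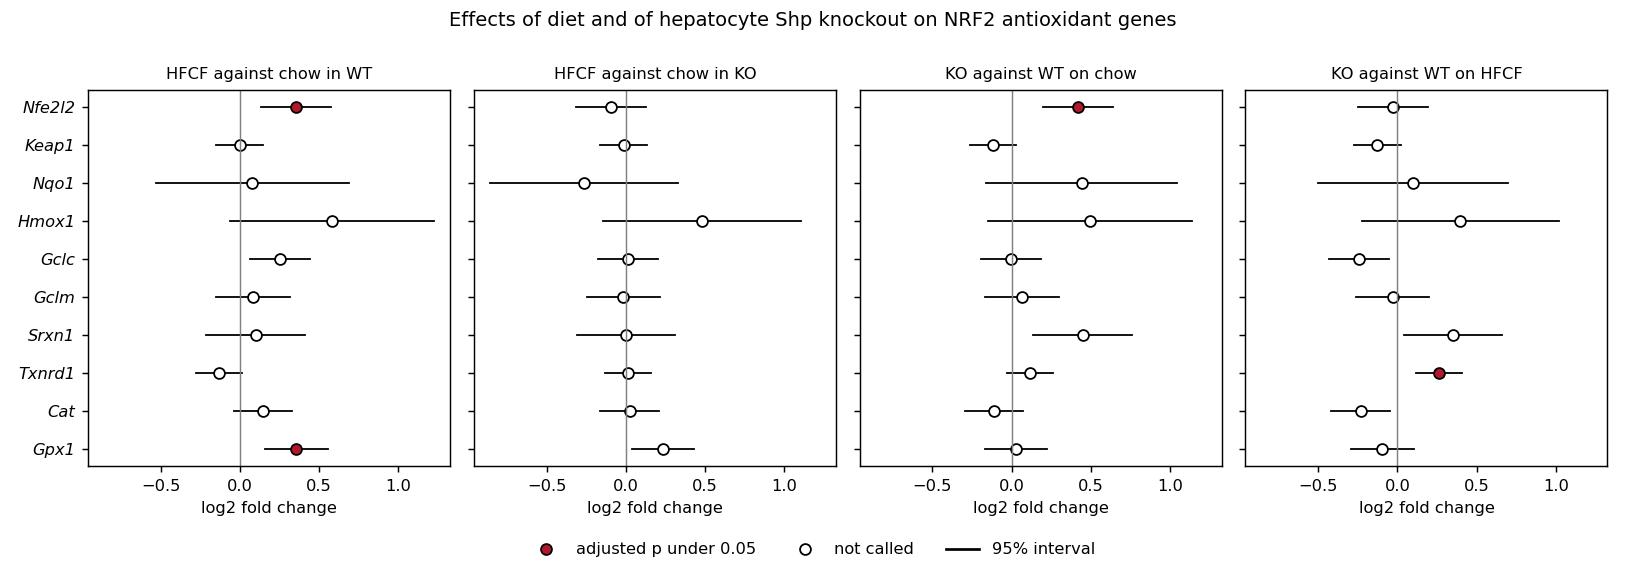
Log2 fold changes with 95% intervals for the 10 genes in the 4 comparisons; filled points passed an adjusted p under 0.05 by edgeR. The 4 filled points are Nfe2l2 and Gpx1 for HFCF in WT, Nfe2l2 for KO on chow and Txnrd1 for KO on HFCF, all above 0.

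Nfe2l2, the gene of NRF2 itself, was lowest in WT livers on chow and differed little among the other 3 groups. It had 77.0, 95.4 and 73.9 CPM in KO livers on HFCF and 90.2, 76.7 and 84.0 CPM in WT livers on HFCF. It had 92.1, 90.0 and 80.5 CPM in KO livers on chow, against 62.7, 71.6 and 62.3 CPM in WT livers on chow. Every one of the 9 other livers lay above all 3 WT livers on chow, and the remaining 3 groups overlapped each other. In KO against WT on chow Nfe2l2 rose by 0.42 ± 0.10 on the log2 scale, a fold of 1.34 (edgeR adjusted p = 0.0154), and in HFCF against chow in WT by 0.35 ± 0.10, a fold of 1.28 (edgeR adjusted p = 0.0372). On HFCF the KO value was -0.028 ± 0.10 relative to WT (edgeR adjusted p = 0.888), and in KO livers the HFCF value was -0.093 ± 0.10 relative to chow (edgeR adjusted p = 0.686). The difference between the KO effect on HFCF and that on chow was -0.45 ± 0.14 on the log2 scale, with a 95% interval of -0.76 to -0.13 and an unadjusted p of 0.00843, and failed the correction by edgeR (adjusted p = 0.193). The KO call on chow was lost without KO chow replicate 1 (edgeR adjusted p = 0.0562) or 2 (0.0516) or WT chow replicate 1 (0.0614) or 3 (0.0723), and the HFCF call in WT without WT HFCF replicate 1 (0.126) or 3 (0.0626) or WT chow replicate 1 (0.103) or 3 (0.133).

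Keap1, the adaptor that holds NRF2 for ubiquitination, was the steadiest of the 10 genes, with its highest liver 1.17 times its lowest. It averaged 53.1 ± 1.2 CPM in KO and 58.0 ± 4.2 CPM in WT livers on HFCF, and 53.6 ± 1.7 CPM in KO and 58.1 ± 2.2 CPM in WT livers on chow. On chow all 3 KO livers, at 52.0 to 55.4 CPM, lay below all 3 WT livers, at 55.6 to 59.7 CPM, and on HFCF the groups overlapped. The KO value was -0.13 ± 0.07 relative to WT on HFCF by edgeR (adjusted p = 0.226) and -0.12 ± 0.07 on chow (adjusted p = 0.272). The ratio of Nfe2l2 to Keap1 in FPKM was 1.60 to 2.16 in KO and 1.51 to 1.86 in WT livers on HFCF, and 1.71 to 2.09 in KO and 1.24 to 1.41 in WT livers on chow. WT livers on chow therefore had the lowest ratios, with no overlap with the other 3 groups.

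Gclc and Gclm form the enzyme that catalyses the rate-limiting step of glutathione synthesis, and neither passed the test in any comparison. Gclc had 317, 366 and 334 CPM in KO livers on HFCF, against 401, 375 and 427 CPM in WT livers on HFCF. On chow it had 341, 330 and 337 CPM in KO livers and 316, 320 and 375 CPM in WT livers. WT livers on HFCF were thus the highest group, above all other livers, by a narrow margin. Gclc was higher by 0.25 ± 0.09 on the log2 scale in HFCF against chow in WT (edgeR adjusted p = 0.0772) and differed by -0.24 ± 0.09 in KO against WT on HFCF (edgeR adjusted p = 0.0748), and neither passed. DESeq2 called both, at adjusted p of 0.0348 and 0.0286, and edgeR called the first without WT chow replicate 3 (0.34 ± 0.09, adjusted p = 0.041) and the second without KO HFCF replicate 2 (-0.33 ± 0.10, adjusted p = 0.041). Gclm averaged 198 ± 14 CPM in KO and 202 ± 21 CPM in WT livers on HFCF, and 200.3 ± 26.8 CPM in KO and 191 ± 15 CPM in WT livers on chow. Its groups overlapped in every comparison, and its log2 fold changes in the 4 comparisons ran from -0.031 to 0.081. The 95% interval for KO against WT on HFCF ran from -0.26 to 0.20. The ratio of Gclc to Gclm in FPKM was 2.55 to 2.59 in KO and 2.83 to 3.15 in WT livers on HFCF, without overlap, and 2.18 to 2.92 in KO and 2.31 to 3.14 in WT livers on chow.

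Txnrd1, the cytosolic thioredoxin reductase that keeps thioredoxin reduced with NADPH, was the 1 member that separated the genotypes completely. It had 158, 168 and 155 CPM in KO livers on HFCF, against 135, 127 and 139 CPM in WT livers on HFCF. On chow it had 162, 154 and 161 CPM in KO livers and 148, 151 and 139.6 CPM in WT livers. The lowest of the 6 KO livers, at 153.6 CPM, was above the highest of the 6 WT livers, at 151.2 CPM. The share of all genes that separate the genotypes in this way was not computed, so the separation is a description only. On HFCF Txnrd1 rose in KO by 0.26 ± 0.07 on the log2 scale, a fold of 1.20 (edgeR adjusted p = 0.0156). On chow the KO difference was 0.12 ± 0.07 (edgeR adjusted p = 0.269), and the difference between these effects was 0.15 ± 0.10 with an interval of -0.062 to 0.35 (edgeR adjusted p = 0.568). In WT livers HFCF samples lay below the chow samples, with a log2 difference of -0.13 ± 0.07 that did not pass (edgeR adjusted p = 0.227). The HFCF call was lost without KO HFCF replicate 2 (edgeR adjusted p = 0.103), without WT HFCF replicate 2 (0.072) and in a fit of the compared groups alone (0.0731).

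Srxn1, sulfiredoxin, repairs peroxiredoxins that have been over-oxidised. It had 86.5, 82.9 and 87.8 CPM in KO livers on HFCF, against 89.9, 55.6 and 55.7 CPM in WT livers on HFCF. On chow it had 93.5, 82.9 and 80.2 CPM in KO livers, against 62.5, 62.6 and 63.0 CPM in WT livers. The 6 KO livers thus lay at 80.2 to 93.5 CPM and 5 of the 6 WT livers below all of them, WT HFCF replicate 1 being the exception. In the fit of all 12 libraries the KO difference was 0.45 ± 0.14 on chow, which missed the threshold by edgeR (adjusted p = 0.0511), whereas the HFCF value was 0.35 ± 0.14 (adjusted p = 0.109). Without WT HFCF replicate 1 Srxn1 rose by 0.45 ± 0.07 on chow (edgeR adjusted p = 0.000678), with the same libraries compared, since 1 estimate of spread is shared over the groups. Without that library it rose by 0.62 ± 0.08 on HFCF (edgeR adjusted p = 0.000119).

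Nqo1, a quinone reductase often used as a readout of NRF2 in other settings, was the least abundant member and the second most variable. It averaged 11.1 ± 0.6 CPM in KO and 10.3 ± 5.0 CPM in WT livers on HFCF, and 13.3 ± 4.2 CPM in KO and 9.82 ± 0.55 CPM in WT livers on chow. The wide groups were WT on HFCF, at 15.9, 6.33 and 8.57 CPM, and KO on chow, at 15.9, 15.6 and 8.51 CPM. Groups overlapped in every comparison, and no difference passed the test. The KO difference was 0.099 ± 0.28 on HFCF (edgeR adjusted p = 0.852) and 0.44 ± 0.28 on chow (edgeR adjusted p = 0.310), and without WT HFCF replicate 1 the HFCF value was 0.57 ± 0.23 (edgeR adjusted p = 0.109).

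Hmox1, heme oxygenase 1, cleaves heme to biliverdin and is abundant in macrophages that clear red cells as well as being a target of NRF2. It had 45.1, 49.7 and 45.2 CPM in KO livers on HFCF, against 59.9, 25.6 and 20.2 CPM in WT livers on HFCF. On chow it had 37.4, 35.7 and 27.1 CPM in KO livers, against 22.8, 27.9 and 20.4 CPM in WT livers. WT HFCF replicate 1 held the highest value of all 12 livers and its 2 group mates were among the low ones. With all libraries Hmox1 was not called in any comparison, with a KO difference of 0.40 ± 0.29 on HFCF (edgeR adjusted p = 0.386) and of 0.49 ± 0.30 on chow (edgeR adjusted p = 0.288). Without that library it rose in KO by 1.03 ± 0.16 on the log2 scale on HFCF (edgeR adjusted p = 0.000527) and by 0.49 ± 0.14 on chow (edgeR adjusted p = 0.0249). In WT livers the HFCF difference was 0.58 ± 0.30 with all libraries (edgeR adjusted p = 0.222) and -0.052 ± 0.16 without it (edgeR adjusted p = 0.888), while without WT HFCF replicate 3 it was 0.86 ± 0.26 and was called (edgeR adjusted p = 0.0428). In KO livers every HFCF sample lay above every chow sample, with a difference of 0.48 ± 0.29 (edgeR adjusted p = 0.415). Without WT HFCF replicate 1, 3 of the 10 genes were called for KO on HFCF (Hmox1, Srxn1 and Txnrd1, beside 17.6% of all genes), 3 for KO on chow (Nfe2l2, Srxn1 and Hmox1, beside 18.7%) and 1 for HFCF in WT (Gpx1, beside 8.73%). For HFCF in KO edgeR still called 0 of the 10, beside 5.20% of all genes, with Hmox1 at an adjusted p of 0.0549.

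Cat and Gpx1 both remove hydrogen peroxide, catalase in peroxisomes and Gpx1 with glutathione in the cytosol and mitochondria. Cat had 3354, 3058 and 2873 CPM in KO livers on HFCF, against 3526, 3596 and 3790.1 CPM in WT livers on HFCF. All 3 KO livers lay below all 3 WT livers on HFCF, but the difference of -0.23 ± 0.09 on the log2 scale did not pass (edgeR adjusted p = 0.0762), while DESeq2 called it (adjusted p = 0.0153), as did edgeR without KO HFCF replicate 1 (-0.31 ± 0.09, adjusted p = 0.0431). On chow Cat averaged 3043 ± 210 CPM in KO and 3287 ± 111 CPM in WT livers, with overlap. Gpx1 had 2100.3, 2170 and 1960 CPM in WT livers on HFCF, against 1614, 1644 and 1609.7 CPM in WT livers on chow. Gpx1 rose with HFCF in WT livers by 0.36 ± 0.09, a fold of 1.28 (edgeR adjusted p = 0.0208), in 3 of 3 livers above all chow livers. In KO livers it had 2144, 1784 and 1906 CPM on HFCF, against 1612, 1543 and 1805 CPM on chow, with overlap and a difference of 0.23 ± 0.09 (edgeR adjusted p = 0.193). The diet effect in KO minus that in WT was -0.12 ± 0.13 (edgeR adjusted p = 0.765). The call in WT was lost without WT HFCF replicate 2 (edgeR adjusted p = 0.0676) or WT chow replicate 1 (0.0527) or 3 (0.0724).

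No member passed the test of a difference between the diet effects of the 2 genotypes: edgeR called 0 of 10, with 1 at an unadjusted p under 0.05 and 0 by DESeq2, beside 0.794% of all genes.

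**Figure D3:**
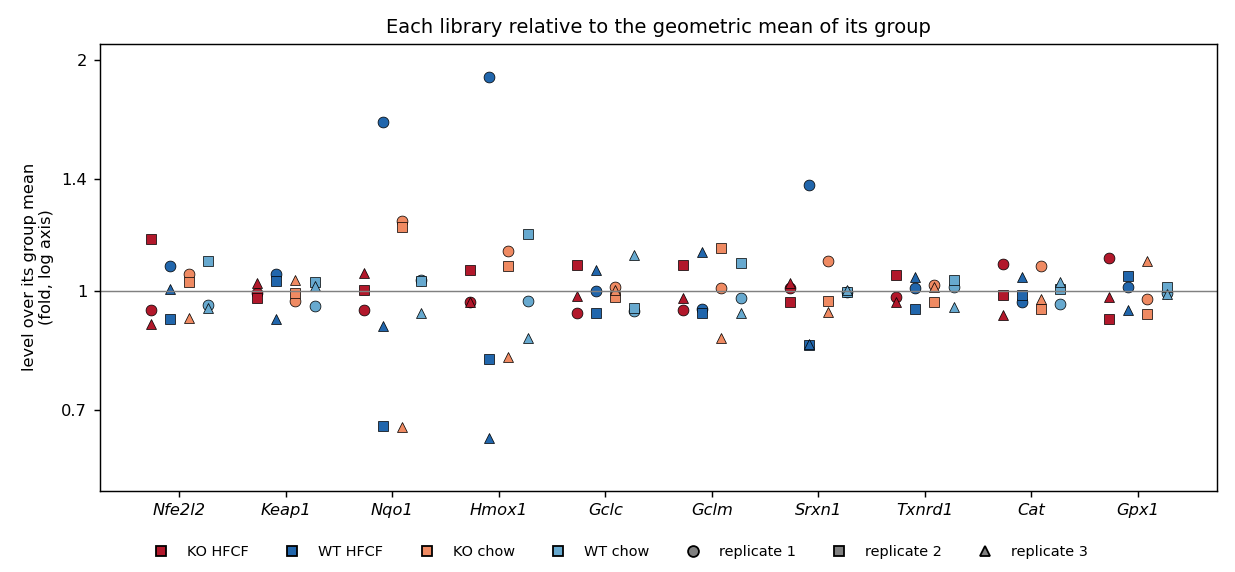
Level of each gene in each liver over the geometric mean of its group, on a log axis, with groups as colours and replicates as shapes. WT HFCF replicate 1 is at least 1.5-fold above both other livers of its group for Hmox1, Srxn1 and Nqo1, and no other liver is for any member.

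Pairs of the 10 genes varied in how closely they moved together across livers, and no share over pairs of all genes was computed. WT HFCF replicate 1 was at least 1.5-fold above both other libraries of its group for 3 of 10 genes, where 5.33% of all genes were so. Hmox1 was 2.34-fold, Nqo1 1.86-fold and Srxn1 1.61-fold above the higher of its group mates in that library, while the other 7 members lay between 0.843-fold and 1.07-fold. In each other library 0 of 10 members were so, where 1.25% to 2.68% of all genes were. Over the 12 livers, 8 of the 45 pairs of members had a Pearson correlation of log2 CPM above 0.5, and 20 were below 0. Taken as deviations from group means, 7 of the 45 were above 0.5. Within groups the correlation was 0.908 for Hmox1 and Srxn1, 0.831 for Nqo1 and Srxn1 and 0.811 for Nqo1 and Hmox1, and WT HFCF replicate 1 is high in all 3 genes. The glutamate-cysteine ligase subunits Gclc and Gclm had 0.163 within groups. The tested genes most like each member over the 12 libraries shared depth and groups with it. The most alike was Hhipl2 for Hmox1 (r = 0.957), Aim2 for Srxn1 (0.952), Eps8l3 for Txnrd1 (0.952), Hmmr for Nfe2l2 (0.924), Ndufa6 for Keap1 (0.940), Aadac for Cat (0.942), Coro1b for Gpx1 (0.946), Gm11695 for Nqo1 (0.942), Gm10804 for Gclc (0.891) and Gm17021 for Gclm (0.862).

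Markers of Kupffer cells and other macrophages, the resident phagocytes of the liver, moved with genotype and with the same WT library. The summed level of the 9 markers was 825 to 880 CPM in KO and 347 to 732 CPM in WT livers on HFCF, and 605 to 634 CPM in KO and 374 to 424 CPM in WT livers on chow. The 732 CPM belonged to WT HFCF replicate 1, and its group mates had 440 and 347 CPM. Of the 9 markers, 6 were called higher in KO on HFCF by edgeR, beside 19.1% of all genes, and 5 on chow, beside 15.5%. Of the chow calls, that of Cd68 held in every fit without 1 library, while Clec4f and Vsig4 lost theirs in 10 such fits each, Lyz2 in 7 and Csf1r in 3. On HFCF the Cd5l call was lost without WT HFCF replicate 2 (edgeR adjusted p = 0.0571), and the other 5 held. None of the 9 was at 0 in any library. Clec4f, a marker of Kupffer cells, averaged 176 ± 11 CPM in KO and 110.5 ± 23.6 CPM in WT livers on HFCF. The KO differences in Hmox1 and Srxn1 moved in the direction of these sums, and the part of macrophages in them was not tested. The 4 lymphocyte markers summed to 48.3 to 61.0 CPM in KO and 18.7 to 35.4 CPM in WT livers on HFCF, and to 41.2 to 49.3 CPM in KO and 18.5 to 25.0 CPM in WT livers on chow. The sums of endothelial, erythroid, stellate cell and cholangiocyte markers overlapped between genotypes on HFCF, and on chow those of stellate cell and cholangiocyte markers were higher in all 3 KO livers. Within these sums edgeR called erythroid Alas2 lower in KO on HFCF (adjusted p = 0.000106) and chow (0.00216), and endothelial Clec4g higher on HFCF (0.00726). The globins Hbb-bs, Hbb-bt, Hba-a1 and Hba-a2 of the erythroid list overlapped between genotypes on both diets, with edgeR adjusted p of 0.817 or more. Endothelial Pecam1, Stab2, Kdr and Cdh5 overlapped on HFCF, with edgeR adjusted p of 0.43 or more. On chow Cdh5 was higher in KO without overlap but was not called (edgeR adjusted p = 0.0552). Of the stellate markers on chow, Col1a1 (edgeR adjusted p = 0.000459) and Col3a1 (0.00459) were called higher in KO, while Dcn, Lrat and Des overlapped. Most of the cholangiocyte sum was Spp1, which other cells also express. Krt19, Krt7 and Epcam overlapped between genotypes on chow, with edgeR adjusted p of 0.876, 0.877 and 0.568. Sox9, from the same list, was higher in KO without overlap on both diets, though never called. Its chow averages were 2.30 CPM in KO and 1.20 CPM in WT livers (log2 0.94 ± 0.37, edgeR adjusted p = 0.0963). The Sox9 difference under HFCF, 1.10 ± 0.37 on the log2 scale, narrowly missed the threshold (edgeR adjusted p = 0.0502).

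**Figure D4:**
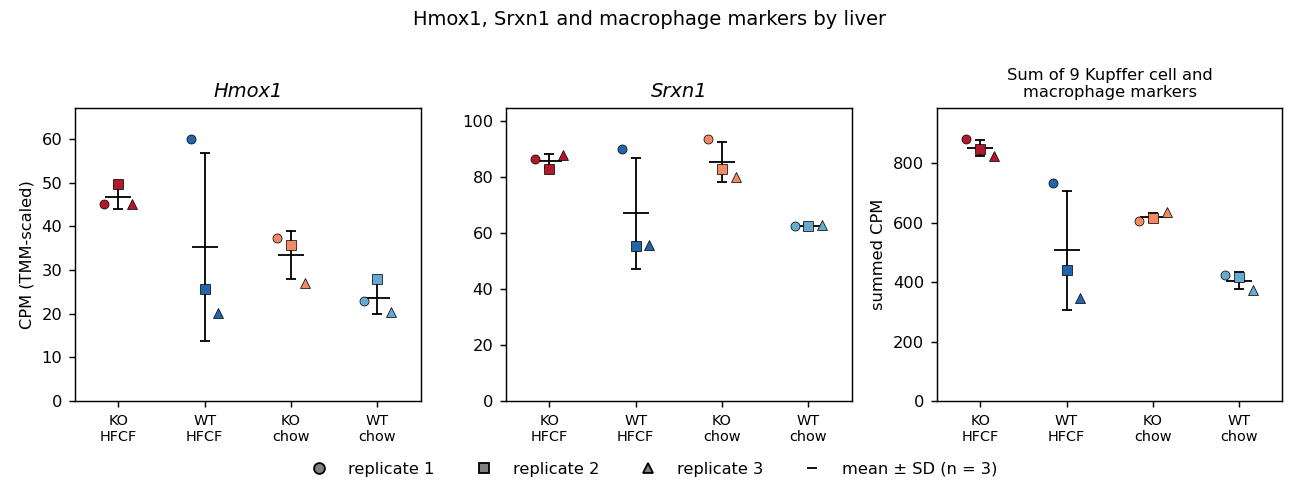
CPM of Hmox1 and Srxn1 and the summed CPM of 9 Kupffer cell and macrophage markers in each liver, with the mean ± SD. On HFCF the KO livers lie above WT replicates 2 and 3 in all 3 panels, and WT HFCF replicate 1 is the high WT liver in each.

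Beyond the 10 genes, 78 other genes of the NRF2 pathway in 7 role lists were tested. These lists cover regulators, glutathione, thioredoxin, NADPH supply, detoxification, heme and iron, and superoxide dismutase and repair. By edgeR, 9 rose and 18 fell in KO against WT on HFCF, which is 34.6% of them beside 19.1% of all genes, and 9 rose and 12 fell on chow, 26.9% beside 15.5%. For HFCF against chow, 9 rose and 9 fell in WT livers, 23.1% beside 13.7%, and 0 rose and 6 fell in KO livers, 7.69% beside 2.65%. Without WT HFCF replicate 1 the counts were 9 and 17, 10 and 13, 7 and 5, and 3 and 10 higher and lower in the same order. The median log2 fold change of the 78 was -0.077 for KO on HFCF and -0.053 on chow, against 0.020 and 0.0041 over all genes. The lists were chosen with earlier results of these data known. These shares, and those of the role lists below, are therefore a description and no test of the pathway.

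**Figure D5:**
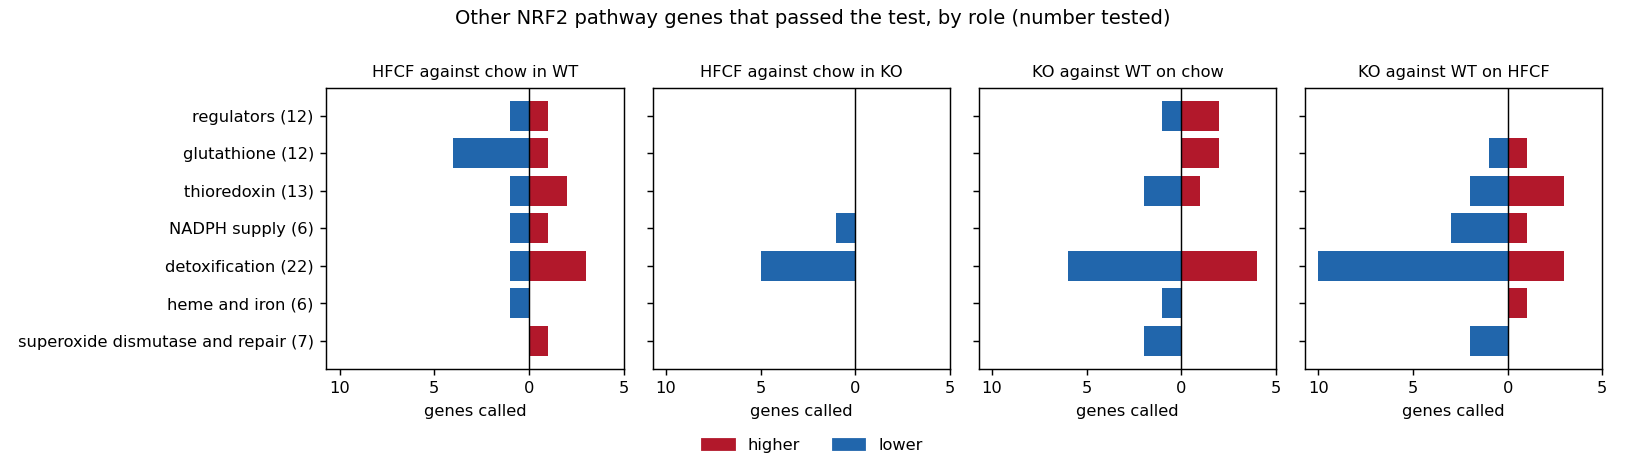
Number of other NRF2 pathway genes called higher (right, red) and lower (left, blue) by edgeR at an adjusted p under 0.05, by role list with the number tested and by comparison. The longest bar is the 10 detoxification genes that were lower in KO against WT on HFCF.

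The detoxification enzymes and transporters held the most calls, with 10 of 22 lower and 3 higher in KO on HFCF and 6 lower and 4 higher on chow. That is 59.1% called on HFCF beside 19.1% of all genes, and 45.5% on chow beside 15.5%. Gsta2, an alpha-class glutathione S-transferase, averaged 1.27 ± 0.17 CPM in KO and 8.61 ± 1.93 CPM in WT livers on HFCF, a log2 difference of -2.76 ± 0.22 (edgeR adjusted p = 3.19e-06). On chow it averaged 3.41 ± 0.50 CPM in KO and 11.7 ± 1.9 CPM in WT livers (log2 -1.76 ± 0.19, edgeR adjusted p = 5.78e-05). Gsta3 averaged 763 ± 28 CPM in KO and 1441 ± 82 CPM in WT livers on HFCF (log2 -0.92 ± 0.08, edgeR adjusted p = 8.52e-06). In the other direction, Abcc4, an export pump for bile acids and conjugates, rose in KO on chow by 1.62 ± 0.20 (edgeR adjusted p = 0.000189). For HFCF in WT livers 3 of the 22 rose and 1 fell, 18.2% beside 13.7% of all genes. The 1 that fell was Gstp1, a pi-class transferase, by 0.95 ± 0.12 (edgeR adjusted p = 0.000332). The Gsta genes have close paralogs that could share reads, and how the authors treated such reads is not given in the sources used here.

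Of 12 glutathione genes, 1 rose and 1 fell in KO on HFCF, 16.7% beside 19.1% of all genes. In KO on chow 2 rose, 16.7% beside 15.5%. With HFCF in WT livers 1 rose and 4 fell, which is 41.7% of them beside 13.7% of all genes. Of these, Gsr lost its call in 9 fits without 1 library, Glrx5 in 8 and Glrx2 in 5. For each of these genes the fit without WT HFCF replicate 1 was among them. Glrx, a glutaredoxin, averaged 22.5 CPM in WT livers on HFCF and 35.5 CPM in WT livers on chow, a log2 difference of -0.65 ± 0.14 (edgeR adjusted p = 0.00796) that held in every fit without 1 library. The call of Slc3a2, the heavy chain partner of Slc7a11, was lost in 3 such fits (log2 -0.37 ± 0.10, edgeR adjusted p = 0.0207). Slc7a11, the cystine importer that feeds glutathione synthesis, had 81 counts in KO and 19 in WT livers summed over 3 libraries on HFCF, a ratio of 4.24 once scaled to library size (95% counting interval 2.55 to 7.40). On chow it had 52 counts in KO and 3 in WT livers, a scaled ratio of 15.8 (95% counting interval 5.10 to 78.9). Slc7a11 was called higher in KO on both diets, at edgeR adjusted p of 0.00348 on HFCF and 0.00229 on chow. Of 13 thioredoxin genes, 3 rose and 2 fell in KO on HFCF, 38.5% beside 19.1% of all genes. Among those that rose was Sesn2, a sestrin, with 0.63 ± 0.15 (edgeR adjusted p = 0.00907). Sesn1 and Prdx1 also rose, but lost their calls in 9 and 7 fits without 1 library. Txnrd2, the mitochondrial counterpart of Txnrd1, was among those that fell, with -0.34 ± 0.08 (edgeR adjusted p = 0.00979). Txnrd1 and Txnrd2 thus had differences of opposite sign in KO on HFCF.

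Of 6 genes in the NADPH supply list, 1 rose and 3 fell in KO on HFCF, 66.7% called beside 19.1% of all genes. Tkt and Taldo1, pentose phosphate enzymes that do not make NADPH themselves, were among those that fell. The 1 that rose was G6pdx, an enzyme that does make NADPH (log2 0.36, edgeR adjusted p = 0.04). Its call was lost in 9 fits without 1 library. Tkt, transketolase, averaged 96.5 CPM in KO and 164 CPM in WT livers (log2 -0.77 ± 0.14, edgeR adjusted p = 0.00222), and Me1, malic enzyme, 33.5 CPM in KO and 60.8 CPM in WT livers (log2 -0.86 ± 0.20, edgeR adjusted p = 0.00773). Of 7 superoxide dismutase and repair genes, 2 fell in KO on each diet, 28.6% beside 19.1% of all genes on HFCF and 15.5% on chow. Sod1, the cytosolic superoxide dismutase, fell by 0.30 ± 0.07 on HFCF (edgeR adjusted p = 0.0101) and by 0.41 ± 0.07 on chow (edgeR adjusted p = 0.00259). Msra, a methionine sulfoxide reductase, averaged 135 CPM in KO and 205 CPM in WT livers on HFCF (log2 -0.61 ± 0.09, edgeR adjusted p = 0.000458), and rose with HFCF in WT livers by 0.51 ± 0.09 (edgeR adjusted p = 0.00254).

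Among 12 regulators 0 were called in KO on HFCF by edgeR, with 4 at an unadjusted p under 0.05, beside 19.1% of all genes called. On chow 2 rose and 1 fell, 25% beside 15.5%. Bach2, a repressor related to the NRF2 competitor BACH1, averaged 7.59 CPM in KO and 3.95 CPM in WT livers on chow (log2 0.94 ± 0.21, edgeR adjusted p = 0.00847). Sqstm1, the autophagy receptor p62 that sequesters KEAP1, averaged 528 CPM in KO and 641 CPM in WT livers on chow (log2 -0.28 ± 0.08, edgeR adjusted p = 0.0304), a call lost without 4 of the libraries in turn. Of 6 heme and iron genes, Hmox2, the constitutive heme oxygenase, averaged 50.8 CPM in WT livers on HFCF and 67.2 CPM in WT livers on chow (log2 -0.40 ± 0.08, edgeR adjusted p = 0.00379). Fech, the last enzyme of heme synthesis, averaged 146 CPM in KO and 178 CPM in WT livers on chow (log2 -0.28 ± 0.07, edgeR adjusted p = 0.0116).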

How the data were processed

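RNA was extracted with a phenol reagent and columns, depleted of ribosomal RNA and made into stranded libraries, per the labels' protocols. The authors deposited a table with read counts, whole numbers for each Ensembl gene, and FPKM values, per the file headers. The submitters' processing notes name the mm10 build; aligner, counter, strand setting and annotation release are not given in the sources used here, so overlapping and antisense genes may share counts. Members and gene lists were chosen with earlier results of these data known.

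Counts were fitted in edgeR 4.0.16 (R 4.3.3) with quasi-likelihood tests, TMM scaling and 1 mean for each of 4 groups over all 12 libraries, after filterByExpr at a minimum count of 10; 1110 genes were removed, and p-values were adjusted by the Benjamini-Hochberg method over 14736 genes. The fit was tested on simulated data. FPKM values were used for levels between genes only. All 10 members and Nr0b2 were named in each comparison, of other pathway genes at most 2 called genes per role list and comparison, by lowest adjusted p, and for each member at most the 3 genes of highest Pearson r. In addition, G6pdx, Taldo1, Sesn1 and Prdx1 were named for KO on HFCF, and Gsr, Glrx2 and Glrx5 for HFCF in WT. Lists named 82 pathway symbols, of which 79 were in the table, and 40 markers, of which 38 were. As alternatives, results were recomputed with upper quartile or RLE scaling, without the filter and with a minimum count of 50, DESeq2 1.42.0, a replicate block, the compared groups alone (not for the interaction) and each library left out in turn. Counting intervals are exact binomial and cover counting error only.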

Additional observations from a re-analysis of the deposited data

Results flagged for a closer look

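The effect of diet differed between genotypes for 2 of the 78 other pathway genes by edgeR's test of the interaction, beside 0.794% of all genes. For Gsta3 the log2 diet effect in KO minus that in WT was -0.61 ± 0.12 (edgeR adjusted p = 0.0377). It averaged 763 ± 28 CPM on HFCF and 967 ± 71 CPM on chow in KO livers, and 1441 ± 82 CPM on HFCF and 1194 ± 35 CPM on chow in WT livers. For Gsta4, another alpha-class transferase, the difference was -0.79 ± 0.17 (edgeR adjusted p = 0.0497), with 30.8 ± 4.0 CPM on HFCF and 48.5 ± 1.4 CPM on chow in KO livers, and 55.8 ± 6.8 CPM on HFCF and 50.6 ± 7.6 CPM on chow in WT livers (SD, n = 3). The Gsta3 call was lost in 8 and the Gsta4 call in 10 of the 12 fits that left out 1 library, with adjusted p of up to 0.101 and 0.122.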

How the results depend on the processing

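Over 940 recomputed member values, 855 kept direction and side of the threshold, 14 lost a call, 19 gained one and 52 changed sign without a call on either side. Scaling moved the median of all genes by under 0.1 on the log2 scale in every comparison. For the 10 genes, KO on chow (1 called) gave 2 by upper quartile scaling, the stricter filter, DESeq2 and the replicate block, and 3 in the compared groups alone, and KO on HFCF (1 called) gave 3 by DESeq2 and 0 in the compared groups alone. Leaving out 1 library gave 0 to 2 for HFCF in WT, 0 to 3 for KO on chow and 0 to 3 for KO on HFCF. For the other pathway genes, HFCF in WT (18) gave 11 in the compared groups alone, HFCF in KO (6) gave 12 by DESeq2, and the interaction (2) gave 1 without a filter and 4 by DESeq2; leave-one-out gave 6 to 21, 1 to 13 and 0 to 4. Over all genes, HFCF in KO (390) gave 656 by DESeq2 and 603 in the compared groups alone, and the interaction (117) gave 344 by DESeq2; leave-one-out gave 1100 to 2264 for HFCF in WT, 157 to 776 for HFCF in KO, 1152 to 2788 for KO on chow and 11 to 136 for the interaction. The cause of these shifts was not tested.

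Changes of sign outside leave-one-out lay near 0: Keap1 for HFCF in WT was 0.0078 by RLE scaling, 0.0023 by upper quartile scaling, 0.00079 without a filter, 0.0097 with the stricter filter, 0.0080 by DESeq2 and 0.0026 in the compared groups alone; Gclc for KO on chow was 0.0080 by upper quartile scaling and 0.021 with the stricter filter; Hmox1 in the interaction was 0.013 with the replicate block; Srxn1 for HFCF in KO was -0.0037 in the compared groups alone. Leave-one-out ranges that crossed 0 were, for HFCF in WT, -0.040 to 0.055 for Keap1, -0.40 to 0.32 for Nqo1, -0.052 to 0.86 for Hmox1, -0.0094 to 0.16 for Gclm and -0.17 to 0.22 for Srxn1. For HFCF in KO they were -0.038 to 0.013 for Keap1, -0.050 to 0.073 for Gclc, -0.11 to 0.082 for Gclm, -0.042 to 0.073 for Srxn1, -0.029 to 0.038 for Txnrd1 and -0.026 to 0.081 for Cat. For KO on chow they were -0.055 to 0.078 for Gclc, -0.033 to 0.16 for Gclm and -0.042 to 0.073 for Gpx1, and for KO on HFCF -0.18 to 0.028 for Nfe2l2, -0.15 to 0.57 for Nqo1 and -0.12 to 0.058 for Gclm. For the interaction they were -0.068 to 0.028 for Keap1, -0.59 to 0.13 for Nqo1, -0.38 to 0.53 for Hmox1, -0.19 to 0.0016 for Gclm and -0.21 to 0.18 for Srxn1.

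The replicate numbers are shared by the groups, and the main fit did not treat the samples as paired. Of 18 correlations between same-numbered samples, 4 exceeded 0.1, in a range of -0.148 to 0.167. Differently numbered samples were not correlated beside them, so whether the numbers pair samples was not tested. With the replicate block Srxn1 was called for KO on chow (edgeR adjusted p = 0.0367), and 97 genes were called for the interaction, against 117. With 3 mice in a group, Nqo1 and Hmox1 have wide intervals, and a missed threshold does not show that groups act alike.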
